A study of Homo sapiens with 12 samples.

Results

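Of 58735 genes measured in NCM460 cells, 186 protein-coding genes had their highest levels in all 3 libraries treated with TNF-α and 5-OH-TMT. The genes were chosen by the measured values themselves, in 3 steps. The gene had to be annotated as protein-coding with a mean of at least 1 FPKM over the 12 libraries, which 10006 genes met (the eligible genes). The lowest of the 3 5-OH-TMT libraries then had to exceed the highest of the other 9, and the 5-OH-TMT mean had to be at least 1.1 times the highest of the other 3 group means. FPKM counts fragments per kilobase of gene, scaled to library size, so levels can be compared between genes per length. Because the same values chose the genes, their excess with 5-OH-TMT is described below without a test.

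NCM460 is a human colon epithelial cell line, labelled as normal colonic epithelium. The 4 groups of 3 libraries were wild-type cells in medium, wild-type cells with TNF-α, wild-type cells with TNF-α and 5-OH-TMT (labelled Bufotenidine), and HTRA2 knockdown cells with TNF-α. All groups other than medium therefore carried TNF-α. The labels give no dose or time, do not say whether one siRNA or several were used, and do not state whether the TNF-α libraries received a control siRNA. No source says whether the libraries came from separate cultures, so p-values measure the spread between these libraries, which may be technical.

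TNF-α is an inflammatory cytokine that acts on gut epithelium mainly through NF-κB and MAP kinases. 5-OH-TMT is the N-trimethylated derivative of serotonin. HTRA2 is a serine protease of mitochondria. Among the pathways the genes belong to, the integrated stress response is the best known as one program: kinases that sense amino acid shortage, misfolded protein or mitochondrial stress phosphorylate eIF2α, and the transcription factor ATF4 then raises genes of amino acid supply and redox control.

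The libraries held 31008429 to 37624399 reads on genes, and those with 5-OH-TMT held 35563523 to 36407127. HTRA2 lay at 15.4, 14.0 and 14.2 FPKM with TNF-α and at 7.44, 7.18 and 7.22 FPKM in the knockdown. Its log2 fold change was -0.98 (SE 0.087, adjusted p = 2.77e-05 by limma). The epithelial markers EPCAM (58.6 to 84.9 FPKM), CDH1 and KRT8 were present in every library, whereas the colonic markers CDX2, CDX1, VIL1, KRT20 and LGALS4 were at or near 0, between 0 and 0.179 FPKM. The leukocyte, stromal and endothelial markers summed to 1.83 to 2.15 FPKM in medium and 2.77 to 2.88 with TNF-α. They summed to 3.15 to 3.81 FPKM with 5-OH-TMT and 5.17 to 7.21 in the knockdown. Over the 12 libraries CDH5 ran from 0.292 to 3.34 FPKM, COL1A1 from 0.974 to 3.21 and CD14 from 0.068 to 0.727. CD3E was at 0 in all 12 libraries, and the other markers on this list reached at most 0.182 FPKM.

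If the order of the 12 libraries were random, 1 in 220 of the eligible genes, or 45.5, would have the 3 5-OH-TMT libraries on top. The observed number was 221, of which 186 also reached the ratio of 1.1. The same order was met by 224 genes for medium, 172 for TNF-α and 1171 for the knockdown, so every group exceeded the chance number. Genes are not independent of each other, so the chance number is a reference and not a test.

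The 186 genes were rich in G and C, with a median transcript GC content of 60.2% against 49.2% over the eligible genes. Of the 186, 180 lay above the eligible median (96.8%), and 63 lay in the highest decile (33.9%). No gene of the 4 lowest GC deciles was among them. The libraries differed along the same axis. Relative to the mean of the 12 libraries, the genes of the highest GC decile exceeded those of the lowest by 0.41, 0.24 and 0.26 on the log2 scale in the 5-OH-TMT libraries. The difference was -0.10, 0.35 and -0.36 in medium, -0.19, -0.05 and -0.20 with TNF-α and 0.05, -0.49 and 0.10 in the knockdown. After each library was adjusted for this trend, 82 genes had the 5-OH-TMT order and 49 met the full rule, and 26 of those 49 were among the 186. The number with the order also went from 172 to 153 for TNF-α, whereas it went up from 224 to 437 for medium and from 1171 to 1687 for the knockdown. This adjustment was chosen after the trend was seen, and it removes any difference that goes with GC content, whatever its source. The part of the trend in the 5-OH-TMT count was not tested.

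**Figure D1:**
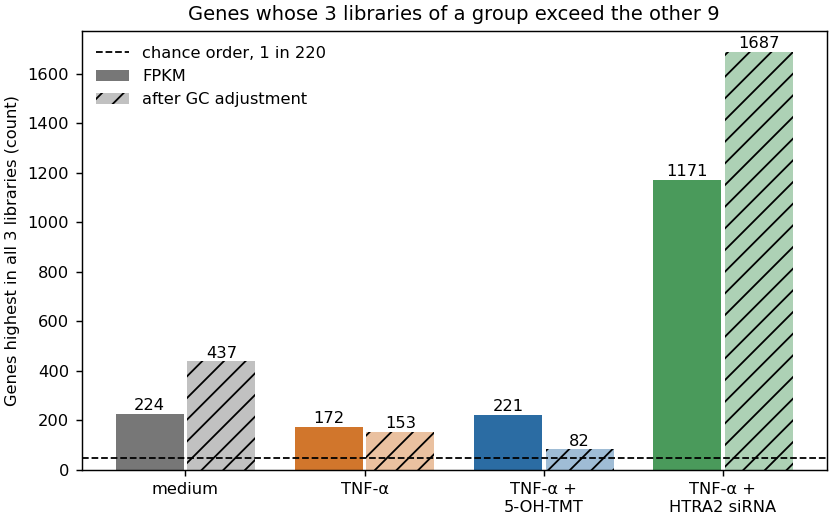
Bars give, for each group, the number of eligible genes whose 3 libraries all exceeded the other 9, from the FPKM (solid) and after the GC adjustment (hatched), and the dashed line marks the 45.5 genes of a random order. The 5-OH-TMT bar falls from 221 to 82 with the adjustment, while the knockdown bar goes from 1171 to 1687.

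**Figure D2:**
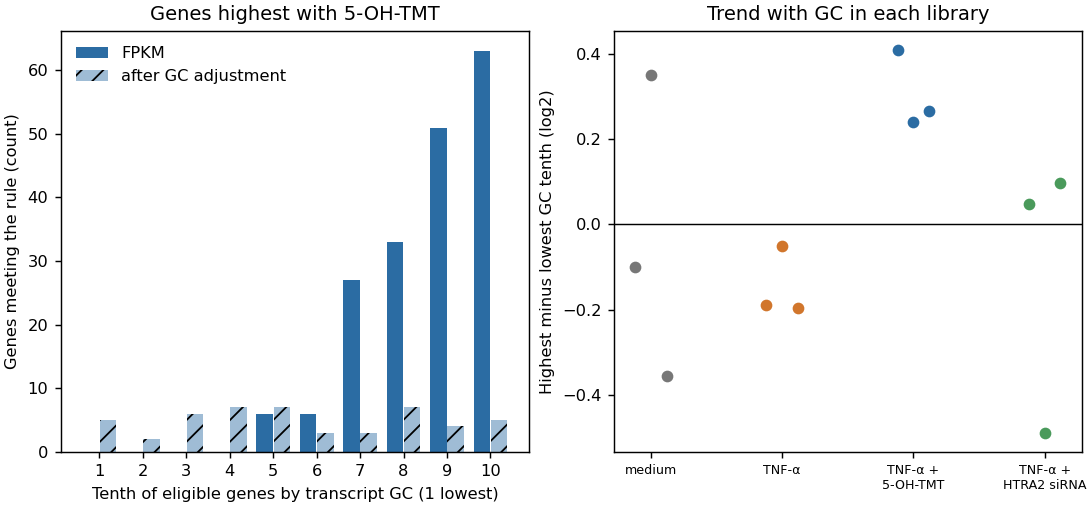
Left, number of genes meeting the rule in each decile of the eligible genes by transcript GC content, from the FPKM (solid) and after the GC adjustment (hatched). Right, for each library, the median log2 level of the highest GC decile minus that of the lowest, relative to the mean of the 12 libraries: the 3 5-OH-TMT libraries and medium replicate 2 lie above 0.2, and knockdown replicate 2 lies lowest at -0.49.

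The excess was small for nearly all of the genes. The ratio of the 5-OH-TMT mean to the highest other group mean ran from 1.1 to 1.54 with a median of 1.16, and 10 genes reached 1.3. The lowest 5-OH-TMT library exceeded the highest other library by a median of 1.03 times. The widest gap was that of RRAD (1.21 times), and the narrowest that of MYO9B, an unconventional myosin, with 15.4 FPKM in both libraries. The median fold over TNF-α alone was 1.2, against 1.0 over the eligible genes. In limma's fit of 5-OH-TMT with TNF-α against TNF-α, 0.0332% of the 18079 genes tested were higher at an adjusted p under 0.05. None of the 186 was among them, 121 had an unadjusted p under 0.05, and limma-voom on the recovered reads called 10. Shares over all genes are not given for the unadjusted and limma-voom counts. The rule used this contrast, and nothing is read from these counts.

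The genes with the largest ratios belonged to no single pathway. HYAL3, a member of the hyaluronidase family, led with 5.18, 5.14 and 4.78 FPKM with 5-OH-TMT. It lay at 3.20, 2.99 and 3.12 FPKM in medium, at 3.10, 3.16 and 3.21 with TNF-α and at 3.73, 2.06 and 4.04 in the knockdown. The medium and TNF-α libraries were close together, whereas those of the knockdown spread widely around a similar mean. The ratio was 1.54, and it was 1.38 after the GC adjustment. HYAL3 shares 12.2% of its exon bases with NAA80 on the same strand, so part of its reads cannot be assigned with certainty.

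ADM2 encodes intermedin, a peptide hormone of the calcitonin family. It reached 6.91, 6.23 and 7.46 FPKM with 5-OH-TMT. Its levels were 5.09, 3.83 and 3.81 FPKM in medium, 4.47, 3.99 and 4.71 with TNF-α and 5.25, 3.53 and 5.52 in the knockdown. The other 3 groups overlapped each other, and the ratio of 1.44 became 1.29 after the GC adjustment.

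ARRB1, which encodes a β-arrestin that desensitizes G-protein-coupled receptors, lay at 6.02, 6.25 and 5.32 FPKM with 5-OH-TMT and between 3.43 and 4.70 FPKM in the other 9 libraries. ZNF341, a zinc finger activator of STAT3 transcription, lay at 5.34, 5.51 and 4.89 FPKM against 2.63 to 4.53 FPKM elsewhere. RUSC2 (ratio 1.31) and PRR5L (1.31), a binding partner of mTORC2, completed the genes among the 10 largest that also met the rule after the GC adjustment. The potassium channel gene KCNH3 (1.37), CHAC1 (1.34) and the zinc finger gene ZBTB12 (1.31) did not meet it then, with adjusted ratios of 1.18, 1.22 and 1.19. Nor did MRPS24, described next, with an adjusted ratio of 1.23. These ratios exceed 1.1, so the order of libraries was the part of the rule not met.

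MRPS24, a protein of the small mitochondrial ribosome, had the third largest ratio at 1.39 and the fewest reads, with 20 in its lowest library. It lay at 1.56, 2.01 and 2.04 FPKM with 5-OH-TMT, at 1.37, 1.54 and 1.13 with TNF-α, at 1.42, 0.817 and 1.102 in the knockdown and at 0.353, 0.239 and 0.305 in medium. Its exons overlap the readthrough gene URGCP-MRPS24 on the same strand, so its counts are uncertain. It was the only one of the 76 eligible mitochondrial ribosomal protein genes that met the rule.

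**Figure D3:**
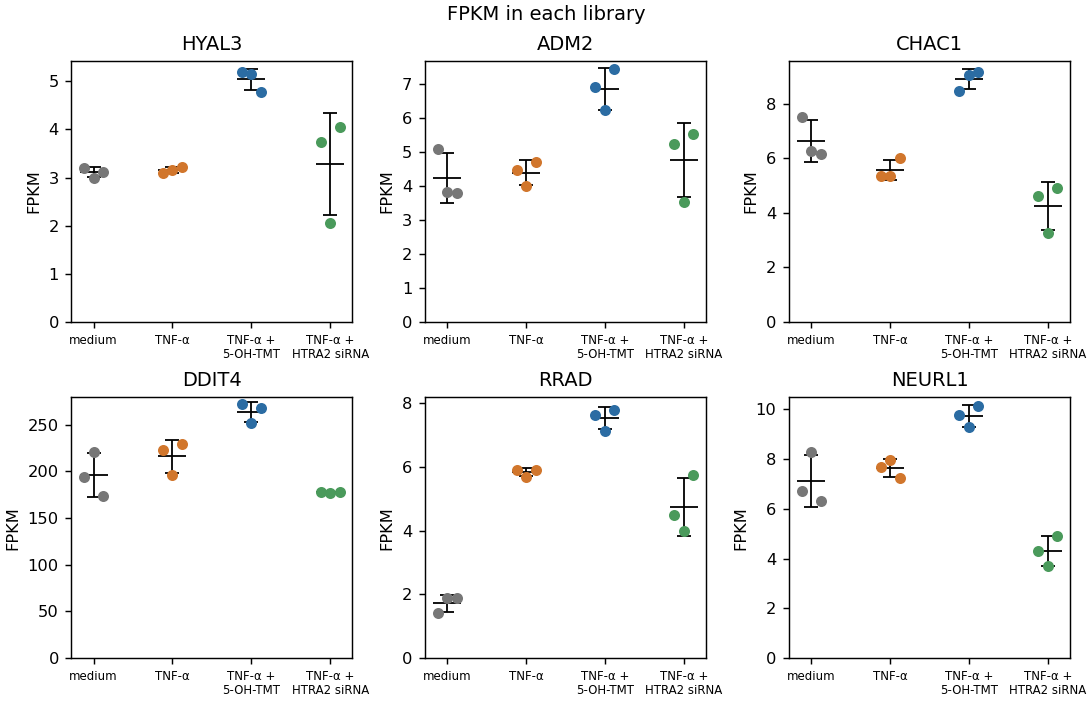
FPKM of 6 of the 186 genes in each library (points), with the group mean and SD (bars, n = 3). The 5-OH-TMT points lie above all others in each panel, RRAD is low in medium at 1.42 to 1.88 FPKM, and NEURL1 is lowest in the knockdown at 3.69 to 4.90 FPKM.

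Integrated stress response genes formed the largest group with a shared pathway. Of the 27 eligible genes on that list, 5 met the rule (18.5%), against 1.86% of all eligible genes. The list itself was GC-rich with a median of 56.7%, and in the GC decile holding that value 3.3% of genes met the rule. It was also chosen with earlier results of these data known, and the share rests on the values that the rule used. No enrichment is therefore read from it. CHAC1 degrades glutathione. It lay at 8.48, 9.05 and 9.16 FPKM with 5-OH-TMT, at 7.52, 6.25 and 6.14 in medium, at 5.34, 5.36 and 5.99 with TNF-α and at 4.61, 3.26 and 4.92 in the knockdown. All knockdown libraries lay below all TNF-α libraries, although this difference did not pass limma's test (log2 fold change -0.40, adjusted p = 0.066).

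DDIT4, an inhibitor of mTORC1 also known as REDD1, was the most abundant gene of the group. It lay at 272, 251 and 267 FPKM with 5-OH-TMT, at 222, 196 and 230 with TNF-α, at 194, 220 and 173 in medium and at 178, 177 and 178 in the knockdown. Its antisense gene DDIT4-AS1 overlaps 41.2% of its exon bases, and the strandedness of the counting is not given in the sources used here. SLC6A9, a glycine transporter, had a ratio of 1.23 but its lowest 5-OH-TMT library was only 1.005 times the highest other library, a knockdown library at 10.3 FPKM.

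STC2, a secreted glycoprotein, lay at 28.7, 32.5 and 30.9 FPKM with 5-OH-TMT and at 27.1, 28.2 and 27.5 with TNF-α (ratio 1.11). PCK2, the mitochondrial phosphoenolpyruvate carboxykinase, had a ratio of 1.11 over the knockdown. ATF4 itself was no member, with 183, 183 and 180 FPKM with 5-OH-TMT against up to 183 in the knockdown. SESN2 and TRIB3, of the same program, had their highest mean with 5-OH-TMT but not the order. Their means were 20.7 and 21.9 FPKM, against 18.2 and 21.3 in medium. PSAT1 and DDIT3 had a lower mean with 5-OH-TMT than in another group, within overlapping ranges. PSAT1, an enzyme of serine synthesis, lay at 92.4, 96.3 and 88.9 FPKM with 5-OH-TMT and at 94.6, 94.5 and 99.4 with TNF-α. In the knockdown PSAT1 was lower, at 69.2, 75.4 and 77.0 FPKM. DDIT3, the transcription factor CHOP, lay at 7.35, 6.31 and 6.38 FPKM with 5-OH-TMT and at 7.44, 7.06 and 8.46 in the knockdown. ASNS, asparagine synthetase, was under 0.31 FPKM in every library and so not eligible. None of the 5 stress response genes met the rule after the GC adjustment. Over the whole list, the median log2 difference of 5-OH-TMT minus TNF-α, the contrast the rule used, was 0.15, against 0.00 over the eligible genes. The median was 0.23 for MHC class I presentation and 0.17 for interferon-stimulated genes, neither of which held a member. It was 0.32 for aryl hydrocarbon receptor targets and -0.21 for DNA replication. Several lists with members exceeded 0.15, among them keratins (0.31), sterol and fatty acid synthesis (0.27) and NF-κB targets (0.20). Others with members lay lower, such as the Wnt pathway (0.09) and mitochondrial ribosomal proteins (-0.06).

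Signalling and transcription genes came next. DUSP1, a phosphatase that switches off MAP kinases, had a ratio of 1.27, and JUN, a subunit of AP-1, had 1.22. JUN lay at 33.6, 35.1 and 38.9 FPKM with 5-OH-TMT against 19.0 to 31.4 FPKM elsewhere. These were 2 of the 23 eligible immediate-early genes. Of the 33 eligible NF-κB targets, the rule took IER3 (ratio 1.14), an early response gene, and TRAF2 (1.14), an adaptor of TNF receptors. The list of EGFR and ERK signalling gave 1 gene, the ETS factor ETV4 (1.14), of 18. After the GC adjustment JUN still met the rule with a ratio of 1.13, and DUSP1 did not, with 1.18. The adjusted ratios of IER3, TRAF2 and ETV4 were 0.996, 0.985 and 0.990.

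WNT7A, a Wnt ligand, lay at 11.5, 11.1 and 10.5 FPKM with 5-OH-TMT against 5.995 to 9.17 FPKM elsewhere. PORCN, the acyltransferase that lipidates Wnt ligands, lay at 10.9, 11.1 and 11.3 FPKM against 5.64 to 9.53 FPKM. They were 2 of the 25 eligible Wnt pathway genes. WNT7A still met the rule after the GC adjustment, with a ratio of 1.14, and PORCN did not, with 1.097. None of the 36 eligible interferon-stimulated genes met the rule. Genes assigned to a transcription factor family in the deposited file were 21 of the 186 (11.3%), against 7.26% of the eligible genes. Of the 186, 9 carried a ZNF name, of 230 eligible, led after ZNF341 by ZNF628 (1.25), ZNF668 (1.24) and ZNF205 (1.22). ZNF628, ZNF668 and ZNF205 did not meet the rule after the GC adjustment, with ratios of 1.11, 1.12 and 1.07.

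Metabolic genes included PFKFB4, which sets the level of a glycolytic activator (ratio 1.21). ACSS2, which makes acetyl-CoA from acetate, and SCAP, the escort protein of SREBP, both had a ratio of 1.12 and were 2 of the 36 eligible sterol and fatty acid synthesis genes. The autophagy genes SQSTM1 (1.12) and ATG7 (1.13), the complex I subunit NDUFS7 (1.15) and the keratin KRT80 (1.25) were also taken. Among the solute carriers, SLC35E2B (1.19), SLC25A22 (1.17) and the monocarboxylate transporter SLC16A3 (1.14) followed SLC6A9. TMEM184A (1.13) was the only gene of its name series. PFKFB4 and KRT80 still met the rule after the GC adjustment, with ratios of 1.12 and 1.15. SLC35E2B (1.09), NDUFS7 (1.04), SLC25A22 (1.02) and SLC16A3 (0.991) did not. Adjusted ratios of the other genes in this paragraph are not given here.

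The 5 most abundant of the 186 were ACTG1, SFN, IER3, FLNA and DDIT4, the last described above. ACTG1, cytoplasmic actin, reached 1865, 1790 and 1741 FPKM with 5-OH-TMT against 1171 to 1714 elsewhere, and it shares sequence with other actin genes. SFN, the epithelial 14-3-3σ protein, reached 862, 826 and 879 FPKM against 562 to 756. IER3 lay at 402, 400.5 and 419 FPKM against 243 to 394. FLNA, an actin crosslinker, reached 314, 306 and 316 FPKM against 186 to 305. The ratios of ACTG1, SFN and FLNA were 1.11, 1.195 and 1.17, and after the GC adjustment they were 0.995, 1.03 and 1.02. That of IER3 went from 1.14 to 0.996. In all, 35 of the 186 had an adjusted ratio under 1.

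At the threshold, ADAMTS12, KDM4B and CERK lay just inside, each with a ratio of 1.101. SCAMP4 and COQ6 had the order but lay just outside with 1.098 each, as did MAVS with a ratio barely under 1.1. In all, 35 genes had the order without the ratio.

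**Figure D4:**
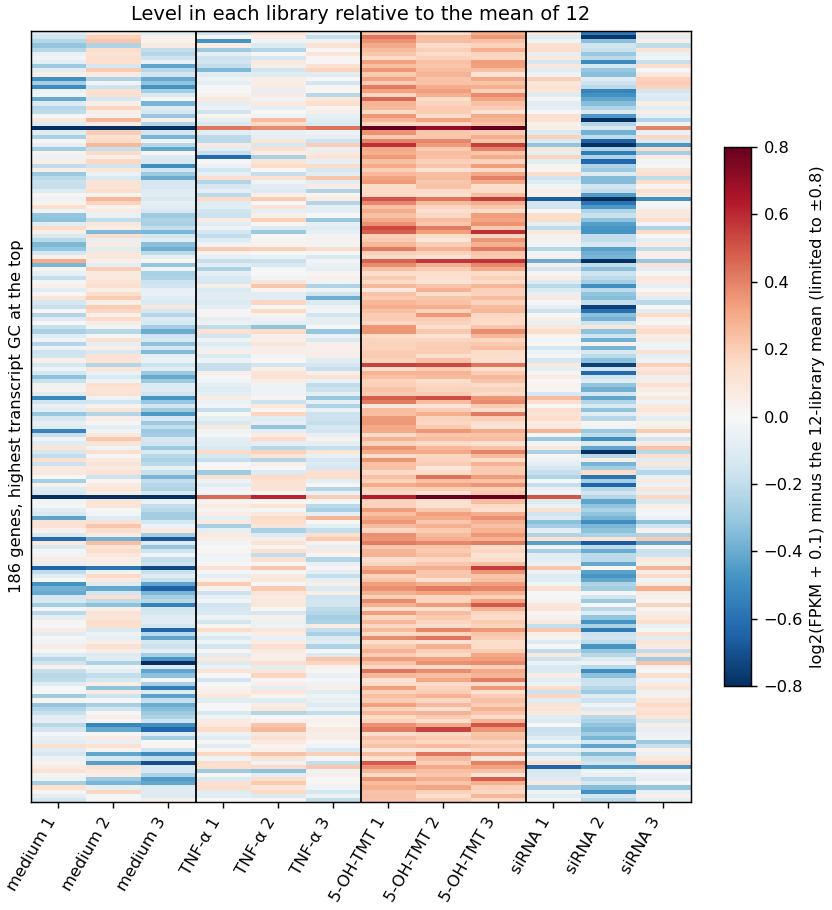
Level of each of the 186 genes (rows, highest transcript GC content at the top) in each of the 12 libraries, as log2(FPKM + 0.1) minus the mean of the 12, with colours limited to 0.8 in either direction. The 5-OH-TMT columns are red throughout because the rule selected them, knockdown replicate 2 is the bluest column, and medium replicate 2 is the least blue of the medium columns.

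The order of libraries within the other groups was uneven. Knockdown replicate 2 was the lowest of its group for 173 of the 186 genes (93.0%), against 46.9% of the eligible genes. Medium replicate 2 was the highest of its group for 147 (79.0%), against 43.8%, and medium replicate 3 the lowest for 142 (76.3%), against 39.2%. Their GC trends were the lowest, the highest and the lowest of their groups. The part of the GC trend in these orders was not tested. Mitochondrially encoded reads were 2.95% in knockdown replicate 2 and 3.69% to 4.68% in the other libraries.

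When 1 of the 3 5-OH-TMT libraries was left out of the choice, 241, 315 and 271 genes were chosen. The library left out exceeded all 9 others for 180 (74.7%), 185 (58.7%) and 180 (66.4%) of them. Of the chosen genes, 177, 181 and 176 met the rule with no library left out, which already requires this order. The counts therefore nearly restate membership, no share for comparison is given, and no recovery is read from them. The 3 libraries also share the GC trend, so the counts describe the libraries and not single genes. Without medium replicate 2, the library outside the 5-OH-TMT group with the strongest trend of the same sign, 498 genes met the rule.

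The sequences upstream of the genes show the base composition. RefSeq promoters (GRCh38.p14) were matched for 153 of the 186 genes and 8003 of the eligible genes. The 250 bases before the start site held a median of 68.8% G and C, against 65.6%. For 83.7% of the matched genes, bases just after the start site were found in a GENCODE transcript of the gene. The stretches of ADM2, DDIT4 and NEURL1 are shown because these genes recur in the results and the stretches hold at most 4 bases of an annotated exon. Their RefSeq start sites lay 13, 4 and 274 bases from the annotated gene starts, so the NEURL1 stretch does not directly adjoin its gene. Capitals mark the GC box GGGCGG in ADM2 and NEURL1 and the CCAAT box in DDIT4, on either strand.
ADM2 (chr22:50481293-50481542, plus strand): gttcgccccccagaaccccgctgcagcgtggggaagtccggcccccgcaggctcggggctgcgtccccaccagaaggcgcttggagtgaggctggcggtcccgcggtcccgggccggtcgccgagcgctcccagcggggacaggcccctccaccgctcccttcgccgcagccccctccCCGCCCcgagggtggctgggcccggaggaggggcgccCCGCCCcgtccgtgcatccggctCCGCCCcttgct
DDIT4 (chr10:72273674-72273923, plus strand): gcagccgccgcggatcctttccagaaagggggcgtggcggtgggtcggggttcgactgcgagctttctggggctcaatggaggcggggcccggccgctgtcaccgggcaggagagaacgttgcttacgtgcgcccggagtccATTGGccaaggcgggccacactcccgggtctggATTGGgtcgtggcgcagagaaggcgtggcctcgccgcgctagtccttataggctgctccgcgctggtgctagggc
NEURL1 (chr10:103493455-103493704, plus strand): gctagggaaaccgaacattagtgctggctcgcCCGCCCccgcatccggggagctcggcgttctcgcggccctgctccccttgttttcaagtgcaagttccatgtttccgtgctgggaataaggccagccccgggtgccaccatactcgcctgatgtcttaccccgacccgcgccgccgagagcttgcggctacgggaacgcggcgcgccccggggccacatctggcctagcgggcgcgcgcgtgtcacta

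The GC box stood in 121 of the 153 promoters (79.1%), against 70.5% of the eligible ones, and CCAAT in 50 (32.7%), against 35.7%. The core GCGTG of dioxin response elements stood in 52.3% against 47.0%. The E-box CACGTG stood in 11.8% against 8.96%, the AP-1 site TGANTCA in 4.58% against 3.72%, CACCCCAC in 0.654% against 2.21%, and the ATF4-type element TGATGNAA, added after the values were seen, in 3 promoters (1.96%) against 1.22%. None of these motifs contains another. A match describes letters in the window and no bound factor.

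The response to TNF-α alone was tested, with the limit that all 12 libraries entered the rule. The rule leaves out a gene that TNF-α lowered, unless its level with 5-OH-TMT exceeded medium as well, so the direction of these calls is partly set by the choice. Over the 18079 genes tested, 3.22% were higher and 0.885% lower with TNF-α than in medium at an adjusted p under 0.05. Of the 186 genes, 15 were higher (8.06%, against 4.90% of the eligible genes) and 0 were lower. At an unadjusted p under 0.05, 33 were higher and 2 lower, and limma-voom called 19 higher and 0 lower. The median log2 fold change was 0.05, against 0.00 over the eligible genes. With the GC adjustment, 38 were higher. Shares over all genes are not given for the unadjusted, limma-voom and GC-adjusted counts. Those counts are therefore not read as particular to the 186 genes.

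RRAD, a small GTPase that restrains calcium channels, rose most clearly with TNF-α. It lay at 1.42, 1.88 and 1.88 FPKM in medium, at 5.89, 5.69 and 5.92 with TNF-α, at 7.63, 7.13 and 7.79 with 5-OH-TMT and at 4.49, 3.97 and 5.75 in the knockdown. Its log2 fold change with TNF-α was 1.71 (SE 0.13, adjusted p = 1.12e-05). MRPS24 rose by 1.86 on the log2 scale (SE 0.20, adjusted p = 0.000174), with the reservation on its counts given above, and by 0.85 with a pseudocount of 1 in place of 0.1. PIK3CD, a catalytic subunit of PI3-kinase, went from 5.58 to 6.11 FPKM in medium to 9.29 to 10.8 FPKM with TNF-α, which is 0.76 on the log2 scale (SE 0.098, adjusted p = 0.000613).

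In the knockdown against TNF-α, 9.35% of the 18079 genes were higher and 8.08% lower. Of the 186 genes, 18 were lower (9.68%, against 12.1% of the eligible genes) and 1 was higher (0.538%, against 13.0%). A gene raised by the knockdown over 5-OH-TMT could not enter the list, so the rule in part sets the number of higher genes. The median log2 fold change was -0.06, against -0.02 over the eligible genes. With the GC adjustment, 38 were lower and 4 higher. The shares above belong to the fit without this adjustment, and none over all genes is given for the adjusted fit. This comparison shares the TNF-α libraries with the one above.

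NEURL1, a ubiquitin ligase of the Notch pathway, fell most. It lay at 7.67, 7.97 and 7.25 FPKM with TNF-α and at 4.32, 3.69 and 4.90 in the knockdown, and the groups did not overlap. Its log2 fold change was -0.82 (SE 0.12, adjusted p = 0.000558). SYTL3, a synaptotagmin-like protein of vesicle trafficking, went from 20.7, 21.0 and 21.9 FPKM to 12.03, 13.6 and 13.5 FPKM. Its log2 fold change was -0.70 (SE 0.075, adjusted p = 8.89e-05).

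EMP3, an epithelial membrane protein, lay at 26.5, 27.0 and 25.5 FPKM with TNF-α and at 20.0, 13.3 and 20.4 in the knockdown. Its log2 fold change was -0.58 (SE 0.14, adjusted p = 0.012), with the lowest value in replicate 2. Without that replicate the log2 fold change was -0.38 (adjusted p = 0.00776). ACSS2 was the 1 gene that rose, from 22.0, 20.4 and 21.0 FPKM to 25.3, 25.2 and 26.4 FPKM, a log2 fold change of 0.28 (SE 0.071, adjusted p = 0.0189). STC2 passed in both comparisons, with 0.54 for TNF-α (SE 0.099, adjusted p = 0.00722) and -0.39 for the knockdown (SE 0.099, adjusted p = 0.019), as did UPP1, C11orf68 and KIFC3.

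The genes the study follows, CLEC7A (Dectin-1), CARD9 and SYK, were not among the 186, and all lay under 1 FPKM on average over the 12 libraries. CLEC7A lay at 0.624, 0.457 and 0.537 FPKM with 5-OH-TMT, at 0.403, 0.413 and 0.467 with TNF-α and at 1.26, 1.25 and 1.13 in the knockdown. CARD9 lay between 0 and 0.0721 FPKM and SYK between 0.104 and 0.266 FPKM in the 12 libraries.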

How the data were processed

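RNA of NCM460 cells was sequenced from poly(A)-selected libraries, 3 in each of 4 groups. The authors deposited FPKM per gene with the gene length used. The submitters' processing notes name CASAVA 1.8, HISAT2 2.0.4, HTSeq 0.9.1 and hg38. Strandedness is not given in the sources used here. All gene coordinates were those of GENCODE 29.

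Each FPKM, multiplied by gene length and the library's step, gave whole reads (within 0.1 read) for 100% of values. The divisor behind the deposited FPKM was the library's median-of-ratios size factor times the same constant in all 12 libraries, and that constant was the geometric mean of the reads on genes. The deposited values are therefore already scaled by size factors rather than by each library's own total, from which they differ by 0.949 to 1.03 times.

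The members and gene lists were chosen with earlier results of these data known. Group comparisons used limma 3.58.1 in R 4.3.3 on log2(FPKM + 0.1), for 18079 genes whose mean reached 0.1 FPKM, with 1 mean per group over all 12 libraries, eBayes with trend, 8 residual degrees of freedom, two-sided tests and Benjamini-Hochberg adjustment. Fold changes on this scale understate those of low genes. On simulated data, 197 to 199 of 200 genes changed by a log2 of 1 between TNF-α and medium were recovered among 18079 genes, with 7 to 22 false calls. The simulation changed only genes with many reads, used the same dispersion for all genes and gave the libraries no GC trend. It therefore checks that the fit runs correctly and does not measure recovery or false calls in these libraries. Transcript GC content came from GENCODE 29, and the GC adjustment removed from each library the median log2 deviation in 50 GC bins. Named genes were the 10 largest ratios, up to 4 per list, the 3 that rose and the 3 that fell most among those past the test in each comparison, 3 on either side of the threshold, the 5 most abundant, and HTRA2, CLEC7A, CARD9 and SYK. Genes named outside this rule were chosen after their values were seen. They were ATF4, SESN2, TRIB3, PSAT1, DDIT3, ASNS, MYO9B, PCK2, UPP1, C11orf68 and KIFC3, and markers. At these depths 3 reads correspond to 0.0805 to 0.0962 FPKM in a gene of 1 kb, which covers counting error only.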

Additional observations from a re-analysis of the deposited data

How the results depend on the processing

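The number of genes meeting the rule was 186. Rescaling by the median of ratios also gave 186, but the deposited FPKM already carry that scaling, so this setting multiplied all libraries by the same constant and says nothing about stability. With values scaled by each library's own total of reads on genes, added after this was seen, 128 genes met the rule, of which 123 were among the 186. Rescaling each library to the same sum of values gave 139 (100 shared) and quantile normalization 171 (132 shared). A minimum ratio of 1.2 left 54. After the GC adjustment, also added after seeing the data, 49 genes met it, 26 of them shared. Leaving out single libraries gave 157 to 498, with 498 without medium replicate 2, 315 without 5-OH-TMT replicate 2 and 157 without medium replicate 3.

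Members higher with TNF-α than in medium numbered 15, against 9 without a trend in eBayes, 4 with only the 2 groups compared, 38 with the GC adjustment and 8 to 17 without single libraries (8 without medium replicate 3 or TNF-α replicate 2). None was lower under any of the settings run. Members lower in the knockdown numbered 18, against 10 with no filter, 9 with only the 2 groups compared, 38 with the GC adjustment and 9 to 18 without single libraries, with 10 or fewer without TNF-α replicate 2 or 3 or knockdown replicate 1 or 2. Members higher in the knockdown numbered 1, against 2 with a minimum mean of 1 FPKM, 2 with limma-voom, 4 with the GC adjustment and 0 to 3 without single libraries, with 0 without TNF-α replicate 2 or knockdown replicate 3 and 3 without knockdown replicate 2. The causes of these changes were not tested. Shares over all genes are not given for these settings, so the counts are not read as particular to the members. The rise of ACSS2 lost its call without TNF-α replicate 2 or 3 or knockdown replicate 3, and the fall of EMP3 lost it with only the 2 groups compared. The log2 fold change of HTRA2 stayed between -1.04 and -0.90 and past the threshold in all settings run. The log2 fold changes of MRPS24, RRAD, PIK3CD, ACSS2, NEURL1, SYTL3 and EMP3 reversed in none of these settings. The ratios of single genes were recomputed only with the uninformative median-of-ratios setting and with the GC adjustment, under which 35 of the 186 fell under 1.

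Deviations of libraries with equal replicate numbers had correlations of 0.072 to 0.24 for TNF-α and medium. They were -0.33 to 0.15 for the knockdown and TNF-α. Unequal numbers were not compared, so these values cannot decide whether a number marks a shared preparation. The main fit used no pairing. With the replicate block, 11 members were lower and 1 higher in the knockdown, and 10 were higher with TNF-α. Shares over all genes are not given for the blocked fit either, so these counts are not read as particular to the members.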

Other observations

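Applied to genes of other biotypes, the same rule took 15 of the 1179 such genes with a mean of at least 1 FPKM. Several rest on few reads. MEMO1P1, a processed pseudogene, had the largest ratio at 2.10 with at least 44 reads in every library, and SNORA5A, a snoRNA, had 1.92 with 5 reads in its lowest library. Poly(A) selection does not target snoRNAs, and pseudogene reads can belong to the parent gene, so both are uncertain. The lincRNAs LINC02081 (1.29), LINC01843 (1.25) and FLJ20021 (1.25) had at least 132, 343 and 160 reads.

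The mirrored rule, lowest in all 3 5-OH-TMT libraries by at least 1.1 times, took 247 genes, and their median transcript GC content was 41.1%, against 49.2% over the eligible genes. The genes highest in every TNF-α library had a median of 43.7% and those lowest in every TNF-α library 59.2%.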
